A study of Homo sapiens with 9 samples.

Results

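The 46 genes described here are BCLAF1, its close relative THRAP3, and the SR proteins, hnRNPs and other splicing factors that act beside them on nuclear pre-mRNA. They were taken by gene name from the deposited expression table, where each name matched 1 gene among 58735. BCLAF1 stands in the title of the study, between the kinase BCKDK and MYC. The study measured RNA in 9 libraries of H1299, an established human lung cancer cell line that the labels call lung adenocarcinoma cells. KO1 and KO2 are monoclonal lines with a CRISPR knockout of BCKDK, each isolated by limiting dilution, with 3 libraries each. Vector cells, also with 3 libraries, were labelled wild type and had received the lentiCRISPR v2 plasmid by lentivirus. BCKDK is the kinase that inhibits the branched-chain ketoacid dehydrogenase complex. The comparisons ask how these transcripts differ between each knockout clone and Vector, and between the clones. Vector is not described as a clone, so BCKDK editing and single-cell cloning cannot be told apart. No label says that replicate libraries were grown as separate cultures. P-values thus reflect the scatter among libraries within groups, pooled over the 3 groups, which may be technical.

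SR proteins have RNA recognition motifs and a tail rich in arginine and serine, and they usually promote the use of the exons they bind. Heterogeneous nuclear ribonucleoproteins (hnRNPs) coat nascent transcripts and often act the other way, by masking splice sites or exons. BCLAF1 and THRAP3 are related arginine- and serine-rich proteins that associate with spliceosomes and with mRNA export factors. Many SR and hnRNP genes carry conserved exons that send their own transcripts to nonsense-mediated decay, so that the amount of each protein feeds back on its mRNA. Several of them, SRSF1 among them, can act as oncoproteins when overproduced.

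Values are FPKM, a read number corrected for exon length and library scale, which allows levels to be compared between genes of different length. That scale was not the total of a library's reads. It matched, at a ratio of 1.0 in each library, a size factor, the median over genes of its recovered reads relative to all libraries. A difference is the fitted difference of log2(FPKM + 1) from 1 limma fit of all 9 libraries over the 16426 genes that averaged 0.5 FPKM or more. Its standard error (SE) or 95% interval comes from that fit, in which the scatter of each gene is pooled over the 3 groups. A library can therefore change calls in a comparison that it is no part of. A gene was called where its Benjamini-Hochberg adjusted p over all fitted genes was under 0.05, and every adjusted p below is from limma. In bulk RNA, fewer cells that express a gene and less of its RNA per cell cannot be told apart.

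The libraries held 16002212 to 17090445 recovered reads each. BCKDK had 1.91, 2.06 and 1.67 FPKM in KO1 and 0.628, 0.576 and 0.287 FPKM in KO2, against 13.7, 12.9 and 17.5 FPKM in Vector, so it was low in every knockout library. Of the labelled cell type's markers, KRT8 had 112 to 130 FPKM in KO1, 15.4 to 17.6 FPKM in KO2 and 13.5 to 20.4 FPKM in Vector, whereas EPCAM, CDH1, NKX2-1, SFTPB and SFTPC were at or near 0 in all 9 libraries. Of the markers of other cell types, the T cell marker CD3E was at 0 in every library, whereas VIM was high in all of them. VIM had 576 to 601 FPKM in KO1, 454 to 631 FPKM in KO2 and 597 to 817 FPKM in Vector. One KO2 library and one Vector library stood apart from the others of their group. In a chi-square comparison of reads over the fitted genes, divided by its degrees of freedom, KO2 replicate 3 gave 49.7 and 46.1 with its companions, which gave 2.59 with each other. Vector replicate 3 gave 53.2 and 45.2 in the same measure, where Vector replicates 1 and 2 gave 6.80 and pairs of KO1 libraries 2.36 to 5.21.

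Both libraries differed from their groups in these genes as well. In KO2 replicate 3, 34 of the 44 fitted genes of the set were lower than the mean of the other KO2 libraries, with a median log2 deviation of -0.275, against -0.003 over all fitted genes. The 46 genes together made up 0.66% of the summed FPKM in that library and 0.812% to 0.869% in the others. In Vector replicate 3, 29 of the 44 were lower, and the deviation followed base composition, with a Spearman correlation of 0.68 with transcript GC content over the 44 genes and 0.77 over all fitted genes. The 26 genes with under 45% GC had a median deviation of -0.31 there, and the 10 with at least 50% had 0.51. In KO2 replicate 3 the same correlation was 0.01 over the 44 genes and -0.29 over all fitted genes. What set these libraries apart was not tested. Values without one or both of them are given beside many of the results against Vector.

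**Figure D1:**
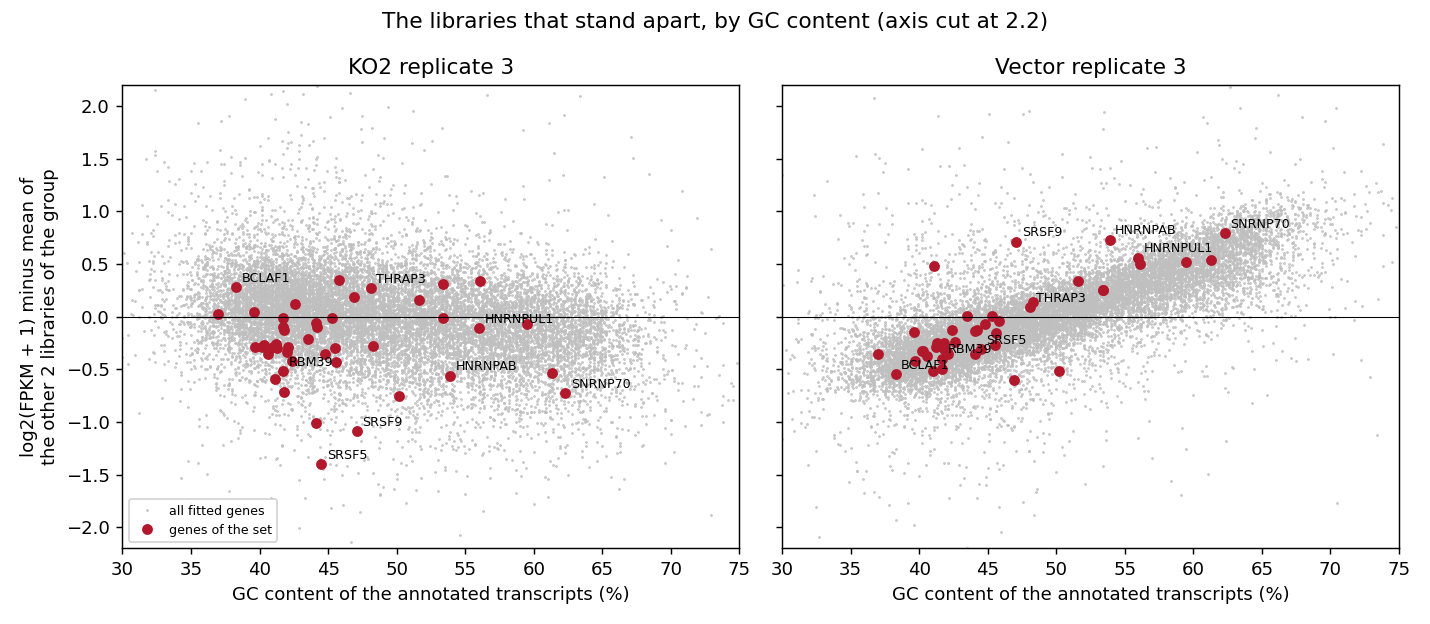
Deviation of KO2 replicate 3 (left) and Vector replicate 3 (right) from the mean of the other 2 libraries of the group, in log2(FPKM + 1), against the GC content of each gene's annotated transcripts in percent. Grey points are all fitted genes and coloured points are the 44 fitted genes of the set; those of at least 50% GC lie mostly above 0 in Vector replicate 3 (9 of 10), and most of the set lies below 0 in KO2 replicate 3 (34 of 44).

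The splicing factors were abundant transcripts in H1299. Of the 46 genes, 42 averaged at least 10 FPKM over the 9 libraries, and the 44 that passed the filter on low values had a median level of 38.1 FPKM, against 4.24 FPKM over all fitted genes. HNRNPA1, an hnRNP that represses exons and shuttles with mRNA to the cytoplasm, was the most abundant. Its level averaged 397 ± 14.4 FPKM in KO1, 367 ± 14.2 FPKM in KO2 and 400 ± 34.7 FPKM in Vector (SD, n = 3 each). HNRNPK, which binds cytosine-rich RNA, followed with 141 ± 0.977 FPKM in KO1, 126 ± 20.4 FPKM in KO2 and 146 ± 11.9 FPKM in Vector (SD, n = 3 each). HNRNPA1 has 74 annotated pseudogenes, of which 47 had reads, so reads could have been split between them. PTBP2, the PTB protein best known from neurons, was the lowest fitted gene at 2.26 to 3.18 FPKM. The median coefficient of variation over these genes was 3.67% in KO1, 11.8% in KO2 and 14.1% in Vector.

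**Figure D2:**
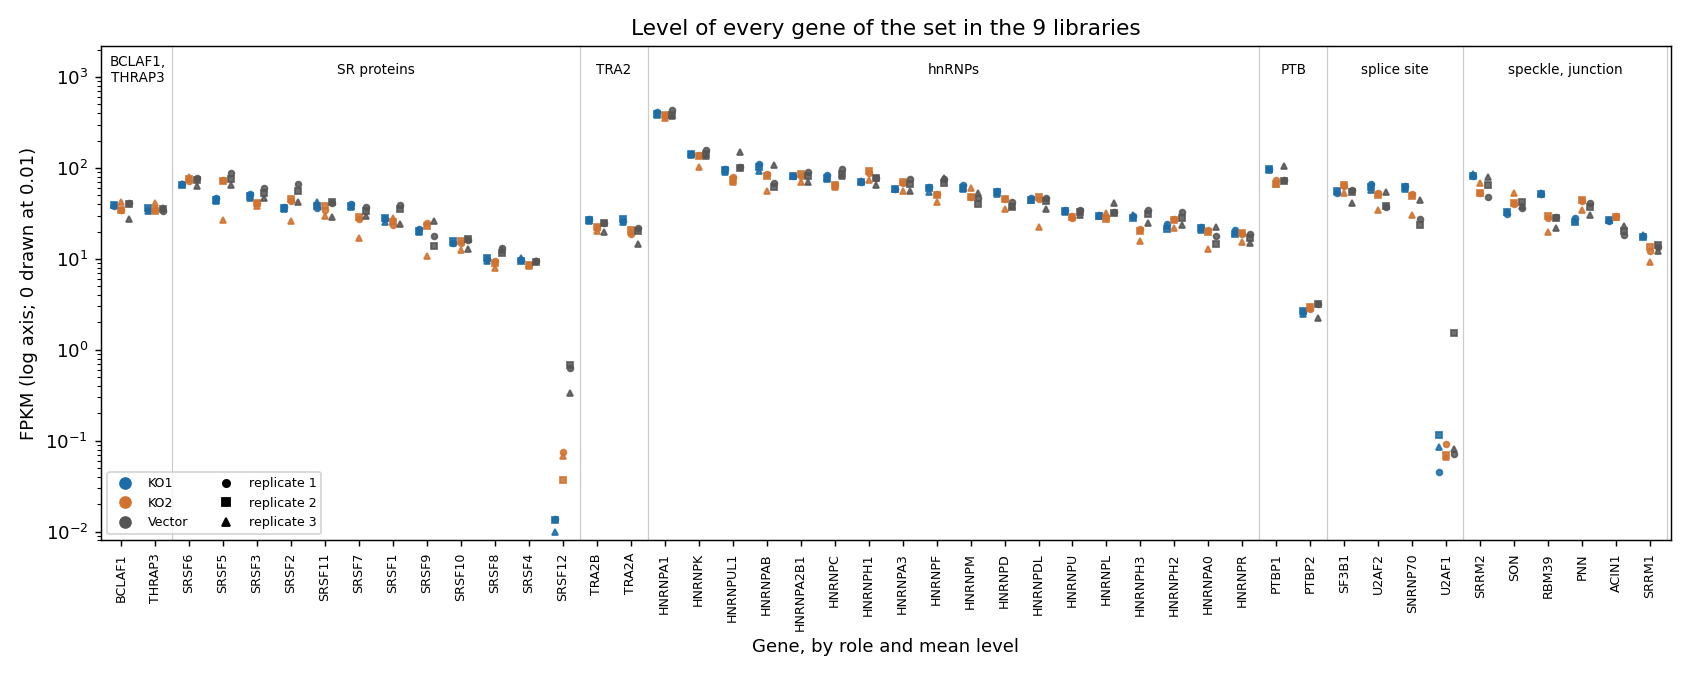
FPKM of each of the 46 genes in the 9 libraries on a log axis, with genes ordered by role and by mean level and libraries coloured by group (KO1, KO2, Vector); a value of 0 is drawn at 0.01. All but PTBP2, SRSF4, SRSF12 and U2AF1 averaged at least 10 FPKM.

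With all 9 libraries, BCLAF1 mRNA did not differ detectably between either knockout clone and Vector. BCLAF1 lies on the minus strand at chr6:136256627-136289851 (hg38). Its level was 38.6, 39.3 and 39.3 FPKM in KO1, 34.1, 34.5 and 41.9 FPKM in KO2, and 40.7, 40.3 and 27.4 FPKM in Vector. The 3 groups overlapped, and the widest gap lay inside Vector, between replicate 3 and the others. Against Vector the log2 difference was 0.13 in KO1 (95% interval -0.22 to 0.48, limma adjusted p = 0.558). In KO2 it was 0.04 (95% interval -0.31 to 0.39, limma adjusted p = 0.871). Each interval includes 0 as well as differences of more than 0.3 in the positive direction, so neither a small rise nor a small fall was detectable with these libraries.

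The sign and the call of BCLAF1 moved with the libraries used. Without Vector replicate 3 the difference was -0.05 in KO1 (limma, adjusted p of 0.697) and -0.14 in KO2 (limma adjusted p = 0.285). Without Vector replicate 3 and KO2 replicate 3 together it was -0.23 in KO2 and called (limma adjusted p = 0.00388), and -0.05 in KO1 (limma adjusted p = 0.295). Weighting the libraries by their fit gave -0.20 in KO2 (limma adjusted p = 0.0108). With each library's trend on transcript length and GC content removed, BCLAF1 was instead higher in KO1, by 0.22 (limma adjusted p = 0.0334). Subtracting the median difference of the genes within 5 Mb, which was -0.35 in KO2, gave 0.39 in KO2 (limma adjusted p = 0.0273). BCLAF1 transcripts are poor in GC, at 38.3%, and BCLAF1 deviated by -0.55 in Vector replicate 3 and by 0.28 in KO2 replicate 3.

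**Figure D3:**
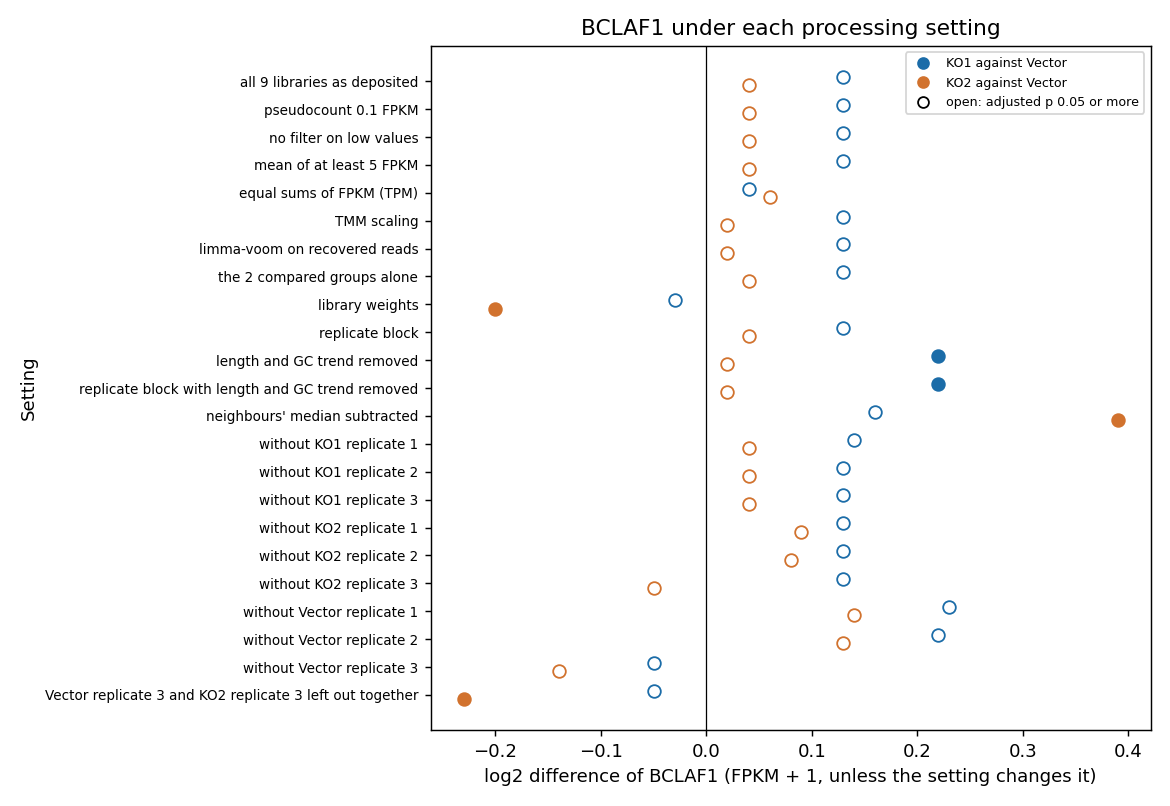
Log2 difference of BCLAF1 under 23 settings of the analysis, for KO1 against Vector and KO2 against Vector; filled points have an adjusted p under 0.05 and open points do not. The KO2 values lie on both sides of 0 (-0.23 without both libraries that stood apart, 0.39 with the neighbouring genes' median subtracted).

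THRAP3, the closest relative of BCLAF1 and also known as a cofactor of the thyroid hormone receptor, was not called in either clone. Its level was 34.4, 36.2 and 33.3 FPKM in KO1, 35.0, 33.7 and 41.5 FPKM in KO2, and 33.5, 35.3 and 36.6 FPKM in Vector. All groups overlapped, and KO2 replicate 3 was the highest library. The log2 difference from Vector was -0.02 in KO1 (95% interval -0.26 to 0.22, limma adjusted p = 0.908) and 0.06 in KO2 (95% interval -0.18 to 0.29, limma adjusted p = 0.725). None of the 22 alternative settings called THRAP3 in either clone.

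The promoters of the pair are shown because the title places BCLAF1 upstream of MYC, a factor that binds the E-box CACGTG. Each sequence runs 5′ to 3′ on the gene's own strand, spans 300 bases around the annotated start, and comes from RefSeq on GRCh38.p14. The motifs searched, on both strands, were CACGTG, the GC box GGGCGG, the ETS motif CCGGAAG, the CCAAT box CCAAT and the TATA box TATAAA. The BCLAF1 promoter, chr6:136289797-136290096 on the minus strand, held no E-box, and capitals mark its 2 GC boxes. The THRAP3 promoter, chr1:36224193-36224492 on the plus strand, held 1 E-box, shown in capitals, whose first base lies at -196 from the start.
BCLAF1: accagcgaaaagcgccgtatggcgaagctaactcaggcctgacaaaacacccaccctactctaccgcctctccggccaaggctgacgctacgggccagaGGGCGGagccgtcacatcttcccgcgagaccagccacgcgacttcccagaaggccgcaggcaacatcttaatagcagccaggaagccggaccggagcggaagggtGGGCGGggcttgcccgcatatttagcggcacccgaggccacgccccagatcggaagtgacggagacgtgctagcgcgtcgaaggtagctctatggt
THRAP3: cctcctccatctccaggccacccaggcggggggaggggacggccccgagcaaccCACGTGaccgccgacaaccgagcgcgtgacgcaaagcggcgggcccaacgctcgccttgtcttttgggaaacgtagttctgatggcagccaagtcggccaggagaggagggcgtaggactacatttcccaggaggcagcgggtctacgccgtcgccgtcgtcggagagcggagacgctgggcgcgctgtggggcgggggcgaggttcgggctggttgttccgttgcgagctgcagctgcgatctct
Promoter sequences were found for 42 of the 46 genes. An E-box was present in 9 of the 42 (21.4%), against 12.8% of the 9853 fitted genes with a promoter sequence and 7.3% of all promoters in the table. A GC box was present in 30 of 42 (71.4%), against 77.7% of the fitted genes and 45.0% of all promoters. The CCAAT box stood in 52.4% of the set and 43.2% of the fitted genes, the ETS motif in 19.0% and 23.0%, and TATAAA in 14.3% and 7.8%. A gene with several promoter sequences was counted where any of them held the motif. These matches describe letters only. The source of the promoter sequences held no entry for HNRNPA1, TRA2A, RBM39 and SRSF2.

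With all 9 libraries, the share of the set that was called lay below the share of all fitted genes in each of the 3 comparisons. In KO1 against Vector 9 of the 44 fitted genes were called (20.5%), against 34.1% of all fitted genes. Of these, 7 were higher and 2 lower, beside 17.4% and 16.7% of all fitted genes. In KO2 against Vector 7 were called (15.9%), 1 higher and 6 lower, against a background of 27.9% (12.9% higher and 15% lower). Between the clones 7 were called (15.9%), 5 higher and 2 lower in KO1 than in KO2, against 30.9% (16.4% higher and 14.5% lower). The median log2 difference over the set was 0.033 for KO1 and -0.086 for KO2 against Vector, and 0.178 between the clones. Over all fitted genes it was 0.008, -0.005 and 0.017 in the same order. The groups did not overlap for 19 of the 44 genes in KO1 against Vector (11 above, 8 below; background 50.1%) and for 10 in KO2 against Vector (1 above, 9 below; background 39%). Between the clones they did not overlap for 27 (21 above, 6 below; background 53.6%). Whether the set differs from other genes was not tested.

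These counts depended on single libraries. The share of all fitted genes that was called, the background, moved as well. In KO1 against Vector the counts were 1, 1 and 3 without KO1 replicates 1, 2 and 3 (background 23.1%, 22.6% and 24.4%). Without Vector replicates 1 and 2 they were 3 and 2 (26.2% and 24.7%). They were 5 and 14 without KO2 replicates 1 and 3 (31.7% and 39.2%), and 16 without Vector replicate 3 (44.8%). In KO2 against Vector the count was 11 without Vector replicate 3 (39.8%) and 6 without any other single library (19.5% to 26.9%). Between the clones it was 4, 3 and 4 without KO1 replicates 1, 2 and 3 (20.3%, 20.4% and 21.9%). Without Vector replicate 3 it was 17 (41.1%). With both libraries that stood apart left out, 27 of 44 were called in KO1 (61.4%), 22 in KO2 (50.0%) and 27 between the clones (61.4%). The background was then 56.8%, 49.5% and 47.7%, so the set's shares were no longer below it. The calls were then 13 higher and 14 lower in KO1, 9 and 13 in KO2, and 19 and 8 between the clones. Background shares higher and lower were 29.5% and 27.3% in KO1, 24.1% and 25.4% in KO2, and 26.1% and 21.6% between the clones. With each library scaled to the same sum of FPKM, the calls in KO1 were 2 higher and 4 lower, and those between the clones 3 higher and 3 lower. Of all fitted genes, 12.8% were then higher and 19.7% lower in KO1, and 11.2% and 17.6% between the clones.

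**Figure D4:**
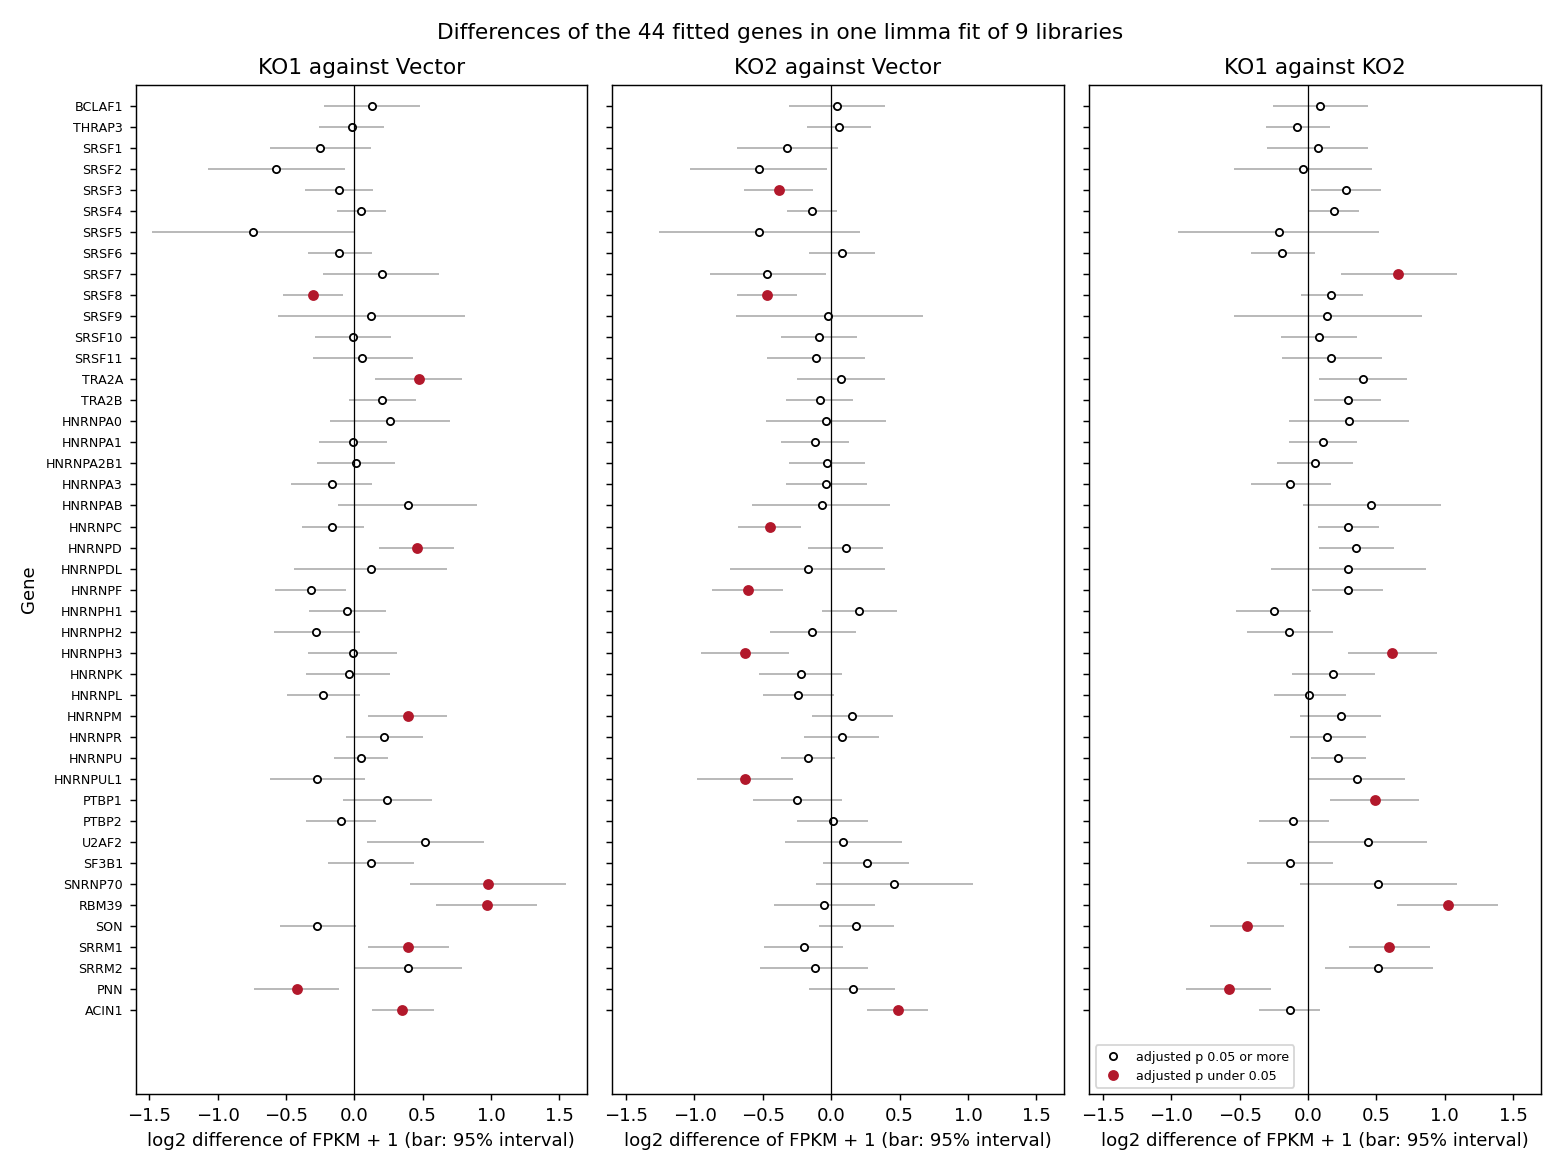
Log2 difference of FPKM + 1 with its 95% interval for each of the 44 fitted genes, in the comparisons of KO1 with Vector, KO2 with Vector and KO1 with KO2; filled points have a limma adjusted p under 0.05. In this fit of all 9 libraries the calls are mostly to the right in KO1 against Vector (7 of 9) and to the left in KO2 against Vector (6 of 7). With both libraries that stood apart left out, they were 13 higher and 14 lower in KO1, and 9 higher and 13 lower in KO2.

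In the fit of all 9 libraries, SRSF8 was the 1 gene of the set called lower in both clones, where 7.42% of all fitted genes were, and ACIN1 the 1 called higher in both, against 5.96%. In that fit none was called in opposite directions (background 1.77%). With both libraries that stood apart left out, 6 were called lower in both clones (SRSF1, SRSF2, SRSF3, SRSF8, HNRNPC and HNRNPF; background 15.8%). Then 7 were called higher in both (ACIN1, SNRNP70, U2AF2, HNRNPA0, HNRNPAB, HNRNPD and SRSF9; background 15.7%), and HNRNPH1 was called in opposite directions (background 4.83%). Both clones were compared with the same Vector libraries.

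Among the SR proteins, 11 of 12 were fitted. With all 9 libraries, 1 of these fell in KO1 and 2 fell in KO2 against Vector, and none rose, beside 34.1% and 27.9% of all fitted genes called in either direction. With both libraries that stood apart left out, 1 was higher and 6 were lower in KO1 (background 56.8% in either direction). In KO2 1 was then higher and 5 were lower (background 49.5%). The higher gene was SRSF9 in both. SRSF8, which arose as a retrotransposed copy of SRSF2, had 9.97, 10.3 and 9.59 FPKM in KO1, 9.46, 8.96 and 7.84 FPKM in KO2, and 13.3, 11.6 and 12.6 FPKM in Vector. Every knockout library lay below every Vector library. SRSF8 fell by 0.30 in KO1 (SE 0.1, limma adjusted p = 0.0432) and by 0.47 in KO2 (SE 0.1, limma adjusted p = 0.00743) on the log2 scale. The KO1 call was lost without KO1 replicate 1, 2 or 3 (adjusted p of 0.116, 0.0963 and 0.14), without KO2 replicate 1 or 2 (0.0568 and 0.0692), and without Vector replicate 1 or 2 (0.121 and 0.0572). It was also lost with limma-voom, a replicate block, the length and GC trend removed, or the neighbouring genes' median subtracted, and was kept in 10 of 22 alternatives. In KO2 the call was kept without each single library, and it was lost with the neighbouring genes' median subtracted. Because the copy resembles SRSF2, reads could have been split between them.

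SRSF3, the smallest SR protein and an adaptor for mRNA export, had 51.6, 49.2 and 46.9 FPKM in KO1, 41.5, 41.4 and 38.5 FPKM in KO2, and 60.0, 53.6 and 46.6 FPKM in Vector. All KO2 libraries lay below the others, whereas KO1 overlapped Vector. SRSF3 fell by 0.38 in KO2 against Vector (SE 0.11, limma adjusted p = 0.0308), and the KO1 difference was -0.11 (limma adjusted p = 0.488). This KO2 call was kept without Vector replicate 3 and lost without any other single library, with adjusted p of 0.0534 to 0.0958. It was also lost with the 2 compared groups alone or with the neighbouring genes' median subtracted. SRSF3 was called lower in KO1 as well, at -0.20 (limma adjusted p = 0.0346), with both libraries that stood apart left out.

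SRSF1, the founding member of the family, had 27.2, 28.0 and 25.6 FPKM in KO1, 23.5, 25.4 and 28.1 FPKM in KO2, and 39.1, 35.2 and 24.2 FPKM in Vector. SRSF2, a speckle-resident SR protein also called SC35, had 37.6, 36.0 and 35.3 FPKM in KO1, 42.9, 46 and 26.0 FPKM in KO2, and 66.8, 56.3 and 42.4 FPKM in Vector. In both genes Vector replicates 1 and 2 lay above all knockout libraries, and Vector replicate 3 was the lowest of its group. As fitted on 9 libraries neither was called: SRSF1 differed by -0.25 in KO1 (limma, adjusted p of 0.273) and -0.32 in KO2 (0.182), and SRSF2 by -0.57 (0.0769) and -0.53 (0.105). Without Vector replicate 3 and KO2 replicate 3 both were called lower in both clones. SRSF1 then differed by -0.45 in KO1 (limma, adjusted p of 0.0014) and -0.58 in KO2 (0.000872), and SRSF2 by -0.74 in KO1 (0.000305) and -0.46 in KO2 (0.00501). Exons of SRSF1 overlap other genes over 60.7% of their length and those of SRSF2 over 36.7%, so their reads are less certain than those of most of the set.

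SRSF5 and SRSF7 showed how far KO2 replicate 3 departed. SRSF5, an SR protein of the classical family, had 47.0, 44.1 and 43.7 FPKM in KO1, 72.9, 72.1 and 26.9 FPKM in KO2, and 87.0, 76.2 and 65.5 FPKM in Vector. KO1 lay below Vector in every library, and KO2 split into a pair near Vector and 1 library below all others. The difference was -0.74 in KO1 (limma, adjusted p of 0.11) and -0.53 in KO2 (0.263). Without KO2 replicate 3 the KO1 difference was called (limma adjusted p = 0.00145), and without both libraries it was -0.84 in KO1 (8.84e-05) and -0.16 in KO2 (0.107). The genes within 5 Mb had a median of -0.58 in KO1. With that median subtracted from all 9 libraries, SRSF5 differed by -0.16 in KO1 and was not called (limma adjusted p = 0.747).

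SRSF7, which combines an RNA recognition motif with a zinc knuckle, had 39.9, 38.1 and 37.1 FPKM in KO1, 27.8, 28.9 and 16.8 FPKM in KO2, and 37.3, 33.4 and 29.6 FPKM in Vector. KO2 lay below Vector in every library. It was the SR gene called between the clones, higher in KO1 than in KO2 by 0.66 (SE 0.19, limma adjusted p = 0.0255), a call lost without KO1 replicate 1, 2 or 3 (0.0817, 0.0704 and 0.0615). Without KO2 replicate 3 the difference was 0.42 and called (limma adjusted p = 0.0228). Against Vector it differed by 0.20 in KO1 (0.453) and -0.47 in KO2 (0.0962). SRSF7 was called lower in KO2, at -0.31 (limma adjusted p = 0.00902), once KO2 replicate 3 and Vector replicate 3 were both left out. In the fit of all 9 libraries the other fitted SR genes (SRSF4, SRSF6, SRSF9, SRSF10 and SRSF11) had differences of -0.14 to 0.12 in the clones against Vector and were not called. With both libraries left out, SRSF9 was called higher in KO1, by 0.36 (limma adjusted p = 0.0236), and in KO2, by 0.58 (0.00579), and SRSF6 was called lower in KO1, at -0.19 (0.0131). SRSF9 varied widely, with 10.8 FPKM in KO2 replicate 3 and 26.4 FPKM in Vector replicate 3, and 46.2% of its exon length overlaps another gene.

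SRSF12 was too low for the fit. It had 1, 1 and 0 reads in KO1 and 6, 3 and 5 reads in KO2, against 47, 53 and 27 reads in Vector. In FPKM this was 0 to 0.0138 in KO1 and 0.0368 to 0.0747 in KO2, against 0.338 to 0.688 in Vector, so the 3 groups did not overlap. With no filter on low values it was called lower in KO1 (log2 difference -0.61, SE 0.08, limma adjusted p = 0.00208) and in KO2 (-0.54, SE 0.08, limma adjusted p = 0.0045). The added 1 FPKM makes these differences understate the change of so low a gene. Between the clones it was not called (limma adjusted p = 0.656).

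The TRA2 proteins, homologues of Drosophila Transformer-2 that bind GAA-rich exonic enhancers, were called once. TRA2A had 26.1, 27.8 and 25.3 FPKM in KO1, 18.8, 20.8 and 19.6 FPKM in KO2, and 22, 20.4 and 14.7 FPKM in Vector. KO1 lay above all other libraries, and KO2 overlapped Vector. TRA2A rose by 0.47 in KO1 (SE 0.14, limma adjusted p = 0.0298), a call lost without KO1 replicate 1, 2 or 3 (0.0791, 0.102 and 0.0662) and in 4 alternatives that kept all libraries of the pair, among them equal sums of FPKM. The difference was 0.30 without Vector replicate 3 (limma adjusted p = 0.0143). In KO2 the difference was 0.07 (limma adjusted p = 0.757), and between the clones it was 0.40 (0.0575). Its paralogue TRA2B had 27.2, 26.6 and 26.3 FPKM in KO1, 22.1, 22.7 and 20.4 FPKM in KO2, and 25.1, 24.7 and 19.8 FPKM in Vector. TRA2B was highest in KO1 but not called, with a difference of 0.20 in KO1 (limma, adjusted p of 0.182) and -0.08 in KO2 (0.602). TRA2B was called lower in KO2, at -0.15 (limma adjusted p = 0.0313), once both libraries that stood apart were left out.

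All 18 hnRNP genes were fitted. With all 9 libraries, 2 rose and none fell in KO1 against Vector (background 34.1% in either direction), and 4 fell and none rose in KO2 (background 27.9%). With both libraries that stood apart left out, the split was 4 higher and 5 lower in KO1 (background 56.8%). In KO2 it was then 4 higher and 6 lower (background 49.5%). With all 9 libraries, the 4 that fell in KO2 were HNRNPC, HNRNPF, HNRNPH3 and HNRNPUL1, and the 2 that rose in KO1 were HNRNPD and HNRNPM. Promoters of 3 of them, each with an E-box in capitals, are shown as examples from genes called in opposite directions in different clones. HNRNPH3 and HNRNPUL1 each have 3 promoter sequences in the source. For these the first sequence with an E-box was chosen, so its presence there follows from the choice. The HNRNPD promoter is chr4:82373942-82374241 on the minus strand, with the E-box at -27 from the start. The sequence chosen for HNRNPH3 is chr10:68331443-68331742 on the plus strand, with the E-box at -50. The sequence chosen for HNRNPUL1 is chr19:41262307-41262606 on the plus strand, with the E-box at 24, after the start.
HNRNPD: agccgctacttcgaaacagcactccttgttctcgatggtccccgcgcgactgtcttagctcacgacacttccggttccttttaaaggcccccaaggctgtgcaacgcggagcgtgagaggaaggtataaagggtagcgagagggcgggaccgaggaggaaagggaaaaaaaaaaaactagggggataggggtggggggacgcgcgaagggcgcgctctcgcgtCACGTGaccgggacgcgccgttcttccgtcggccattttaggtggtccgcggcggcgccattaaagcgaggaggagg
HNRNPH3: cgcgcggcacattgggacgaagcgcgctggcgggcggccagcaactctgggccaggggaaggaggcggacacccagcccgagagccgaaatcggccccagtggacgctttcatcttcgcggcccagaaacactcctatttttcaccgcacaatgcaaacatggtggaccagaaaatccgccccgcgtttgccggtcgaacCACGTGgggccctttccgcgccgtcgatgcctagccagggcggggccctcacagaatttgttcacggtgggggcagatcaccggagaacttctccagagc
HNRNPUL1: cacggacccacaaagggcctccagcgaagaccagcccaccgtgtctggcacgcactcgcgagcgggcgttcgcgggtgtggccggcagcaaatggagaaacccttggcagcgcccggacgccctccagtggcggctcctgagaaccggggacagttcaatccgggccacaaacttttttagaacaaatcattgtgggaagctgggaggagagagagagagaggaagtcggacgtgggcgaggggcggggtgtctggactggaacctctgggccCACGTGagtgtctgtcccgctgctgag
HNRNPM also held an E-box, whereas HNRNPC and HNRNPF held none in these windows.

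HNRNPF and HNRNPH3 belong to the subfamily that binds runs of guanine. HNRNPF had 61.2, 60.6 and 54.6 FPKM in KO1, 51.6, 50.8 and 42.0 FPKM in KO2, and 74.9, 67.9 and 78.5 FPKM in Vector. Every knockout library lay below every Vector library, and KO2 lay below KO1. HNRNPF fell by 0.61 in KO2 (SE 0.12, limma adjusted p = 0.00458), a call kept in all 22 alternative settings. In KO1 the difference was -0.32 (SE 0.12, limma adjusted p = 0.0589) and was not called. It was called in KO1 without KO2 replicate 3 (limma adjusted p = 0.0223), and without both libraries that stood apart (0.0134).

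HNRNPH3 had 29.9, 28.3 and 30.4 FPKM in KO1, 21.4, 20.1 and 15.9 FPKM in KO2, and 34.3, 30.9 and 25.0 FPKM in Vector. KO2 lay below all other libraries, and KO1 lay within the range of Vector. It fell by 0.63 in KO2 against Vector (SE 0.14, limma adjusted p = 0.011) and differed by -0.01 in KO1 (0.952). The clones differed by 0.61 (SE 0.14, limma adjusted p = 0.0109), and both calls were kept in all 22 alternatives. HNRNPH2, a paralogue on the X chromosome, had 24.2, 21.5 and 22.9 FPKM in KO1, 27.2, 26.9 and 21.9 FPKM in KO2, and 33.0, 28.0 and 23.4 FPKM in Vector. It was not called, at -0.28 in KO1 (limma, adjusted p of 0.16) and -0.14 in KO2 (0.503), and 16.3% of its exons overlap a read-through gene. Without Vector replicate 3 it was called lower in KO1, with a difference of -0.40 (limma adjusted p = 0.0279).

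HNRNPC binds uridine tracts and keeps cryptic exons, among them Alu-derived ones, out of mRNA. It had 83.4, 76.9 and 75.7 FPKM in KO1, 64.4, 65.4 and 62.1 FPKM in KO2, and 96.4, 84.9 and 82.2 FPKM in Vector. KO2 lay below all other libraries. HNRNPC fell by 0.45 in KO2 (SE 0.1, limma adjusted p = 0.0102) and differed by -0.16 in KO1 (0.266). In KO1 it was called lower, at -0.20 (limma adjusted p = 0.0482), with both libraries that stood apart left out. HNRNPUL1, a relative of HNRNPU with a role in DNA repair, had 98.1, 96.2 and 91.2 FPKM in KO1, 78.8, 73.1 and 70.3 FPKM in KO2, and 102, 99.7 and 149 FPKM in Vector. It was lower in every knockout library than in Vector, and lowest in KO2. HNRNPUL1 fell by 0.63 in KO2 (SE 0.15, limma adjusted p = 0.0154), beside a median of -0.47 for the genes within 5 Mb, and that call was lost once this median was subtracted. Its KO2 difference was -0.40 (limma adjusted p = 0.0018) without both libraries that stood apart. In KO1 it differed by -0.27 (limma adjusted p = 0.208).

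HNRNPD, also called AUF1, binds AU-rich elements and steers mRNA decay. Its level was 56.2, 53.8 and 51.7 FPKM in KO1, 45.9, 45.6 and 35.3 FPKM in KO2, and 42.1, 37.3 and 37.7 FPKM in Vector. KO1 lay above all other libraries. HNRNPD rose by 0.46 in KO1 (SE 0.12, limma adjusted p = 0.0179) and differed by 0.11 in KO2 (0.557). Its call was lost without KO1 replicate 1 or 2 (0.0704 and 0.0621) or Vector replicate 2 (0.061). It was also lost with each library scaled to the same sum of FPKM and with the neighbouring genes' median subtracted. HNRNPD was called higher in KO2 as well, by 0.20, once both libraries that stood apart were left out, with an adjusted p just under 0.05.

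HNRNPM, a regulator of alternative exons in epithelial to mesenchymal transition, had 64.6, 60.2 and 59.1 FPKM in KO1, 48.1, 48.2 and 60.1 FPKM in KO2, and 47.3, 40.6 and 52.4 FPKM in Vector. KO1 lay above Vector, and KO2 replicate 3 reached the KO1 range. HNRNPM rose by 0.39 in KO1 (SE 0.13, limma adjusted p = 0.0438). That call was lost without KO1 replicate 1, 2 or 3 (0.14, 0.107 and 0.0918), KO2 replicate 1 or 2 (0.0585 and 0.061) or Vector replicate 1 or 2 (0.0857 and 0.149). It was kept in 9 of 22 alternatives and lost in 6 that used every library, among them the replicate block, equal sums of FPKM and the neighbouring genes' median subtracted. The other 11 hnRNP genes (HNRNPA0, HNRNPA1, HNRNPA2B1, HNRNPA3, HNRNPAB, HNRNPDL, HNRNPH1, HNRNPK, HNRNPL, HNRNPR and HNRNPU) were not called in either clone against Vector or between the clones in the fit of all 9 libraries. With both libraries that stood apart left out, 6 of the 11 were called against Vector in at least 1 clone. Of all fitted genes, 56.8% were then called in KO1 and 49.5% in KO2. HNRNPA0 was then higher in KO1, by 0.42 (limma adjusted p = 0.00714), and in KO2, by 0.31 (0.036). HNRNPH1, a relative of HNRNPF, was at -0.14 in KO1 (limma, adjusted p of 0.0362) and 0.21 in KO2 (0.0114), opposite in sign. HNRNPA3 was lower in KO1, at -0.27 (limma adjusted p = 0.00615), and HNRNPL at -0.18 (0.022) and HNRNPU at -0.24 (0.00491) were lower in KO2. HNRNPAB, the sixth, had 110, 102 and 93.4 FPKM in KO1, 86.5, 81.0 and 56.3 FPKM in KO2, and 68.2, 62.2 and 108 FPKM in Vector. Vector replicate 3 lay far above the other Vector libraries. Without that library HNRNPAB was called higher in KO1, by 0.63 (limma adjusted p = 0.0226), and without KO2 replicate 3 as well it was also called higher in KO2, by 0.36 (0.0154).

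The PTB proteins repress exons through pyrimidine tracts, PTBP1 in most cells and PTBP2 mainly in neurons. PTBP1 had 97.8, 97.2 and 95.9 FPKM in KO1, 72.9, 67.4 and 66.5 FPKM in KO2, and 73.5, 71.5 and 104 FPKM in Vector. KO1 lay above KO2 in every library, and Vector replicate 3 stood above the other Vector libraries. Against Vector it was not called, at 0.24 in KO1 (limma, adjusted p of 0.224) and -0.25 in KO2 (0.238). Between the clones it was higher in KO1 by 0.49 (SE 0.14, limma adjusted p = 0.03), a call lost without any 1 of the 6 knockout libraries (0.0893, 0.0894 and 0.0794 without KO1 replicates 1 to 3, and 0.0544, 0.0844 and 0.0628 without KO2 replicates 1 to 3). It was also lost with a replicate block, with no filter on low values and with equal sums of FPKM. Without Vector replicate 3 it was also called higher in KO1 against Vector, by 0.41 (limma adjusted p = 0.00264). In KO2 against Vector PTBP1 was called lower with the neighbouring genes' median subtracted, at -0.36 (limma adjusted p = 0.00834). That was also so with the length and GC trend removed, with or without a replicate block. PTBP2 had 2.63, 2.66 and 2.50 FPKM in KO1, 2.79, 2.92 and 2.91 FPKM in KO2, and 3.17, 3.18 and 2.26 FPKM in Vector. Both knockout groups lay inside the Vector range, and PTBP2 was not called, at -0.10 in KO1 (limma, adjusted p of 0.556) and 0.01 in KO2 (0.956). It was called lower in KO1 without Vector replicate 3, with a difference of -0.21 (limma adjusted p = 0.0439).

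Among the genes that recognise splice sites, SNRNP70, the 70K protein of the U1 particle at the 5′ splice site, showed the largest difference. Its level was 62.7, 62.1 and 59.1 FPKM in KO1, 52.3, 49.1 and 30.1 FPKM in KO2, and 27.2, 23.6 and 44.6 FPKM in Vector. KO1 lay above all other libraries. Replicate 3 was the lowest KO2 library and the highest Vector library. SNRNP70 rose by 0.98 in KO1 (SE 0.25, limma adjusted p = 0.0163) and differed by 0.46 in KO2 (0.207). The KO1 call was lost without KO1 replicate 1 or 2 (0.0519 and 0.051) or Vector replicate 1 or 2 (0.0571 and 0.0605). Without both libraries that stood apart SNRNP70 was called higher in both clones, by 1.24 in KO1 (limma, adjusted p of 2.5e-05) and 0.97 in KO2 (0.000134). SNRNP70 transcripts are among the richest in GC of the set, at 62.3%.

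U2AF2, which binds the polypyrimidine tract before the 3′ splice site, had 66.1, 61.5 and 56.8 FPKM in KO1, 52.5, 49.9 and 34.9 FPKM in KO2, and 36.9, 37.7 and 54.5 FPKM in Vector. KO1 lay above all other libraries. It was not called, at 0.52 in KO1 (limma, adjusted p of 0.0605) and 0.09 in KO2 (0.768), and the genes within 5 Mb had a median of 0.48 in KO1. Without both libraries that stood apart, and with no such subtraction, U2AF2 was called higher in KO1, by 0.70 (limma adjusted p = 0.000204), and in KO2, by 0.45 (0.00295). SF3B1, the branch site protein of the U2 particle, had 53.7, 55.7 and 54.8 FPKM in KO1, 63.1, 65.6 and 52.5 FPKM in KO2, and 56.7, 53.9 and 41.2 FPKM in Vector. The groups overlapped, and SF3B1 differed by 0.12 in KO1 (limma, adjusted p of 0.53) and 0.26 in KO2 (0.201). It was called higher in KO2, by 0.21 (limma adjusted p = 0.0118), once both libraries that stood apart were left out.

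U2AF1, the partner of U2AF2 that reads the AG at the 3′ splice site, could not be fitted. It had 8, 21 and 16 reads in KO1, 18, 14 and 12 reads in KO2, and 13, 286 and 16 reads in Vector. The high value lay in Vector replicate 2 alone. U2AF1 has an annotated near copy, U2AF1L5, on the same chromosome, and 89.4% of the 100-base stretches of their exons are shared. The copy had 1127, 847 and 652 reads in KO1, 856, 572 and 209 reads in KO2, and 1045, 303 and 972 reads in Vector. Reads of the pair therefore cannot be assigned, and their sums were 1135, 868 and 668 in KO1, 874, 586 and 221 in KO2, and 1058, 589 and 988 in Vector, which overlap.

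Of the 6 speckle and junction proteins, 4 were called in KO1 (3 higher, 1 lower; background 34.1%), 1 in KO2 (higher; background 27.9%) and 4 between the clones (background 30.9%). These proteins build nuclear speckles or mark spliced exon junctions. RBM39, a U2AF2-related splicing factor that sulfonamide drugs such as indisulam send for degradation, was the most raised gene of the group in KO1. It had 52.2, 51.4 and 53.2 FPKM in KO1, 28.0, 29.3 and 19.7 FPKM in KO2, and 29.1, 28.5 and 21.6 FPKM in Vector. KO1 lay above every other library, and KO2 overlapped Vector. RBM39 rose by 0.97 in KO1 against Vector (SE 0.17, limma adjusted p = 0.00203) and differed by -0.05 in KO2 (0.854). It was higher in KO1 than in KO2 by 1.02 (SE 0.17, limma adjusted p = 0.00179). Both calls were kept in all 22 alternatives, including each library left out in turn. The genes within 5 Mb had a median of 0.23 in KO1 against Vector.

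ACIN1, the scaffold of the apoptosis- and splicing-associated protein complex (ASAP), was higher in both clones. It had 26.3, 26.6 and 27.1 FPKM in KO1, 29.7, 29.2 and 29.2 FPKM in KO2, and 18.5, 20.4 and 23.2 FPKM in Vector. Every knockout library lay above every Vector library, with KO2 the highest. ACIN1 rose by 0.35 in KO1 (SE 0.1, limma adjusted p = 0.0228) and by 0.49 in KO2 (SE 0.1, limma adjusted p = 0.00655). The KO2 call was kept in all 22 alternatives. The KO1 call was lost without KO1 replicate 1, 2 or 3 (0.0685, 0.0795 and 0.0822), without Vector replicate 1 or 2 (0.0704 and 0.0664), and with each library scaled to the same sum of FPKM.

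PNN (pinin) scaffolds the related PSAP complex with the partners RNPS1 and SAP18. It had 27.9, 25.2 and 27.0 FPKM in KO1, 42.9, 44.4 and 34.3 FPKM in KO2, and 41.3, 37.0 and 30.6 FPKM in Vector. KO1 lay below all other libraries. PNN fell by 0.42 in KO1 against Vector (SE 0.14, limma adjusted p = 0.0425) and was lower in KO1 than in KO2, with a difference of -0.58 (SE 0.14, limma adjusted p = 0.0124). The genes within 5 Mb moved as far, with medians of -0.49 against Vector and -0.56 between the clones, and with them subtracted the KO1 difference was 0.07 (limma adjusted p = 0.639). The call against Vector was kept only without KO2 replicate 3 or Vector replicate 3 among the single libraries, with adjusted p of 0.0546 to 0.138 without the other 7. The call between the clones was lost without KO1 replicate 2 (0.0553) or KO2 replicate 2 (0.0503), and with the neighbouring genes' median subtracted (0.928).

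SRRM1, an SR-related coactivator of splicing, had 17.7, 17.4 and 18.5 FPKM in KO1, 12.1, 13.4 and 9.24 FPKM in KO2, and 13.5, 14.2 and 12.3 FPKM in Vector. KO1 lay above all other libraries. SRRM1 rose by 0.39 in KO1 against Vector (SE 0.13, limma adjusted p = 0.0428) and was 0.59 higher in KO1 than in KO2 (SE 0.13, limma adjusted p = 0.00809). The call between the clones was kept in all 22 alternatives. The call against Vector was kept without KO2 replicate 2 or 3 and lost without each of the other 7 libraries, with adjusted p of 0.0599 to 0.124. It was also lost with a replicate block, no filter on low values, equal sums of FPKM or the neighbouring genes' median subtracted.

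SON and SRRM2 are the proteins around which nuclear speckles form. SON had 31.1, 33.1 and 32.9 FPKM in KO1, 40.4, 41.6 and 52.5 FPKM in KO2, and 36.4, 42.7 and 38.4 FPKM in Vector. KO1 lay below all other libraries. SON was lower in KO1 than in KO2, with a difference of -0.45 (SE 0.12, limma adjusted p = 0.0207), a call lost without KO1 replicate 1, 2 or 3 (0.0797, 0.0621 and 0.0606) and with the neighbouring genes' median subtracted (0.0656). Against Vector it differed by -0.27 in KO1 (limma, adjusted p of 0.122) and 0.18 in KO2 (0.29). The KO1 difference was called, at -0.28 (limma adjusted p = 0.0159), with both libraries that stood apart left out. The genes within 5 Mb of SON had a median of -0.35 in KO1. With the neighbouring genes' median subtracted, SON differed by 0.08 in KO1 (limma adjusted p = 0.68) and was called higher in KO2, by 0.44 (0.0334). SRRM2 had 81.1, 82.6 and 84.8 FPKM in KO1, 53.3, 53.1 and 67.8 FPKM in KO2, and 48.4, 64.4 and 79.6 FPKM in Vector. KO1 lay above Vector, which itself spread widely, and SRRM2 was not called, at 0.39 in KO1 (limma, adjusted p of 0.115) and -0.12 in KO2 (0.644). It was called higher in KO1 without Vector replicate 3, by 0.56 (limma adjusted p = 0.0173). The genes within 5 Mb of SRRM2 had a median of 0.39 in KO1, as large as its own difference. With that median subtracted SRRM2 was not called in KO1 (limma adjusted p = 0.993).

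**Figure D5:**
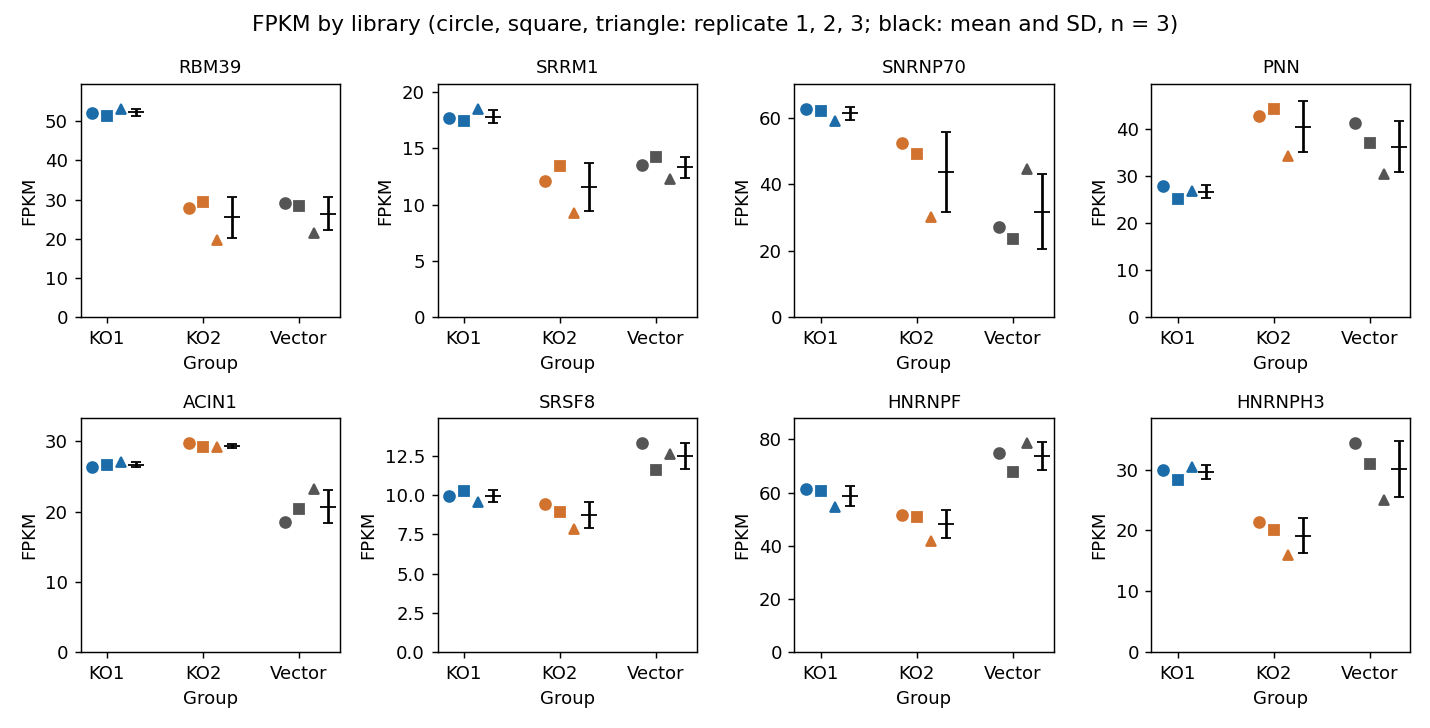
FPKM by library in KO1, KO2 and Vector for selected genes of the set, with circle, square and triangle for replicates 1, 2 and 3 and black marks for the mean and SD of 3 libraries. RBM39 averaged 52.3 FPKM in KO1, 25.6 FPKM in KO2 and 26.4 FPKM in Vector, and ACIN1 was above every Vector library in all 6 knockout libraries.

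Between the clones, 7 genes of the set were called. Higher in KO1 than in KO2 were RBM39 (1.02), SRSF7 (0.66), HNRNPH3 (0.61), SRRM1 (0.59) and PTBP1 (0.49), and lower were PNN (-0.58) and SON (-0.45). These values test whether the differences of the clones from Vector differ from each other. Vector cancels out of the values, but its scatter enters their standard errors and so the calls. Without Vector replicate 3, 17 genes were called (background 41.1%), and with the clones fitted alone 15 (background 38.6%). Marker levels differed between the clones too, as with KRT8 and with KRT18, which had 314 to 359 FPKM in KO1, 86.4 to 103 FPKM in KO2 and 53.2 to 71.2 FPKM in Vector. MUC1, a further epithelial marker, was low in every group and lowest in KO1, averaging 0.486 ± 0.0925 FPKM in KO1, 1.21 ± 0.0863 FPKM in KO2 and 1.13 ± 0.126 FPKM in Vector (SD, n = 3 each). SYP, a neuroendocrine marker, had 0.421 to 0.454 FPKM in KO1, 1.24 to 2.05 FPKM in KO2 and 0.997 to 2.08 FPKM in Vector. Of the 5 markers that could be fitted, 4 were called between the clones, KRT8 and KRT18 higher and MUC1 and SYP lower in KO1. Their part in these results was not tested.

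Around these genes, 137 fitted genes of 7 further RNA processing lists were counted. In KO1 against Vector 31 were called (22.6%, 19 higher and 12 lower; background 34.1%) and in KO2 34 (24.8%, 11 higher and 23 lower; background 27.9%). Between the clones 38 were called (27.7%; background 30.9%), 31 higher and 7 lower in KO1. With each library scaled to the same sum of FPKM these splits were 15 higher and 19 lower, 14 and 16, and 19 and 12. Without Vector replicate 3 the counts were 54 in KO1 (background 44.8%) and 58 in KO2 (39.8%), and without KO2 replicate 3 the KO1 count was 50 (39.2%). The KO2 count was 19 and 21 without Vector replicates 1 and 2 (19.5% and 20.1%). Between the clones it was 22, 22 and 25 without KO1 replicates 1 to 3 (20.3%, 20.4% and 21.9%). It was 25 without either KO2 replicate 1 or 2 (24.9% and 23.6%). Named from each list are the rising and the falling gene with the smallest p in each clone. Values of single genes from these lists are from the fit of all 9 libraries, and those under the other settings are not given.

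The kinases and phosphatases that act on SR proteins had 2 calls of 15 in KO1, both lower (background 34.1%). In KO2 they had 4, 1 higher and 3 lower (background 27.9%). SRPK1, the kinase that phosphorylates SR proteins in the cytoplasm so that they enter the nucleus, had 17.6, 18.1 and 17.8 FPKM in KO1, 11, 11.7 and 15.3 FPKM in KO2, and 26.3, 26.1 and 20.8 FPKM in Vector. Every knockout library lay below every Vector library, and SRPK1 fell by 0.42 in KO1 (limma, adjusted p of 0.0393) and by 0.90 in KO2 (0.00147). PRPF4B, a spliceosomal kinase, fell by 0.90 in KO1 (limma, adjusted p of 0.00118) and by 0.67 in KO2 (0.0071). PPP1CA, a catalytic subunit of protein phosphatase 1, rose by 0.54 in KO2 (limma adjusted p = 0.0229) and differed by 0.41 in KO1 (0.0572).

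The exon junction complex and ASAP or PSAP partner list also holds nonsense-mediated decay factors and the spliceosome protein SNW1. It had 7 calls of 16 in KO1 (5 higher, 2 lower, background 34.1%) and 4 in KO2 (1 higher, 3 lower, background 27.9%). Between the clones 9 were called, all higher in KO1 (background 30.9%). With each library scaled to the same sum of FPKM, 5 were called higher and 1 lower (background 28.8%). SNW1 fell by 0.84 in KO1 (limma, adjusted p of 0.000806) and by 0.67 in KO2 (0.00357). RNPS1, the shared partner of ACIN1 and PNN, was singled out after its values were seen. It had 34.4, 33.6 and 32.9 FPKM in KO1, 16.1, 15 and 11.9 FPKM in KO2, and 21.1, 20.4 and 26.6 FPKM in Vector. KO1 lay above Vector and KO2 below it. RNPS1 rose by 0.56 in KO1 (limma adjusted p = 0.0128), fell by 0.63 in KO2 (0.00869) and was 1.19 higher in KO1 than in KO2 (0.000282).

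Of the snRNP proteins, 6 of 37 were called in KO1 (5 higher, 1 lower, background 34.1%) and 8 in KO2 (3 higher, 5 lower, background 27.9%). PRPF6, a bridging protein of the tri-snRNP, rose by 0.88 in KO1 (limma, adjusted p of 0.00138) and by 0.64 in KO2 (0.0089). SNRPD2, an Sm core protein, fell by 0.78 in KO1 (limma, adjusted p of 0.00133) and by 0.84 in KO2 (0.0012). The PRPF19 complex and catalytic factors had 3 calls of 20 in KO1 (2 higher, 1 lower) and 4 in KO2, all lower, beside the same backgrounds. PRPF19, the ubiquitin ligase of that complex, rose by 0.52 in KO1 (limma adjusted p = 0.00277), CRNKL1 fell by 0.76 in KO1 (0.00273), and CDC40 fell by 0.67 in KO2 (0.00449).

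Other sequence-specific splicing regulators had 8 calls of 33 in KO1 (4 higher, 4 lower, background 34.1%) and 11 in KO2 (4 higher, 7 lower, background 27.9%). KHDRBS3, a STAR-family splicing regulator also called SLM2 or T-STAR, had 4.57, 3.98 and 3.74 FPKM in KO1, 3.90, 3.52 and 3.78 FPKM in KO2, and 0.956, 0.902 and 1.07 FPKM in Vector. Every knockout library lay far above every Vector library, and KHDRBS3 rose by 1.36 in KO1 (limma, adjusted p of 1.29e-05) and 1.26 in KO2 (3.03e-05). RBM3, a cold-induced RNA-binding protein, had 51.3, 48.5 and 44.6 FPKM in KO1, 50.8, 49.8 and 51.9 FPKM in KO2, and 107, 97.5 and 91.5 FPKM in Vector. It fell by 1.02 in KO1 (limma, adjusted p of 9.28e-05) and by 0.94 in KO2 (0.000201). Both genes differed from Vector by more than any of the 44 fitted genes of the set did in KO2, where the largest differences were -0.63.

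The export list, with TREX, had 3 calls of 13 in KO1, all higher (background 34.1%), and 2 in KO2, 1 in each direction (background 27.9%). ALYREF, an adaptor that hands mRNA to the export receptor, rose by 0.89 in KO1 (limma adjusted p = 0.00319) and differed by 0.02 in KO2 (0.946). POLDIP3 rose by 0.37 in KO2 (limma adjusted p = 0.0365), and THOC6 fell by 0.68 in KO2 (0.0225). Of the transcription kinases CDK12 and CDK13 and their cyclin CCNK, CCNK fell by 0.48 in KO1 (limma adjusted p = 0.00413) and CDK13 rose by 0.45 in KO2 (0.014). In all, 2 of the 3 were called in KO1, both lower, and 1 in KO2, beside the same backgrounds.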

How the data were processed

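Per the labels' protocols, RNA was isolated in TRIzol and sequenced on an Illumina NovaSeq after NEBNext Ultra library preparation. CASAVA 1.6, HISAT2 2.0.5 and featureCounts 1.5.0-p3 were used with hg38, per the submitters' processing notes. Not given in the sources used here are their order, options, strand setting and rule for multi-mapping reads. The deposited values are FPKM, per the file headers, in 1 table of all 9 libraries. Its 58735 gene identifiers were all found in GENCODE 29, and 99.95% of the names matched. Reads recovered from FPKM and merged exon length were whole, within 0.02 reads, for 100.0% of values. Without a known strand setting, reads of overlapping genes cannot be told apart.

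The test was limma 3.58.1 under R 4.3.3, two-sided, with trended empirical Bayes and group as the sole term. It used log2(FPKM + 1) of each gene that averaged 0.5 FPKM or more. Fold changes on the log2(FPKM + 1) scale understate changes of low genes. The fit was tested on simulated reads with the same scatter in every library and no GC trend. That simulation held no library like those that stood apart, so it does not cover them. The members and lists were chosen with earlier results of these data known. Values in every library are given for BCLAF1, THRAP3, members called in both clones, and up to 4 more per role group and clone comparison with the smallest p, 27 genes in all; HNRNPAB, SRRM2 and RNPS1 are further genes named after their values were seen. Alternatives changed the pseudocount, filters, scaling, test, weights, replicate block, length and GC trend, neighbouring genes, threshold and libraries used. The labels state no pairing by replicate number, and the count test on recovered reads was replaced by limma-voom, chosen after seeing the data. One gene that the naming rule picks from the other lists is not reported here.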

Additional observations from a re-analysis of the deposited data

Results flagged for a closer look

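The differences of the clones from Vector were themselves unequal, by the limma test between the clones, for 7 of the 44 fitted genes, against 30.9% of all fitted genes. The log2 differences between KO1 and KO2 were 1.02 for RBM39, 0.66 for SRSF7, 0.61 for HNRNPH3, 0.59 for SRRM1 and 0.49 for PTBP1, all higher in KO1. They were -0.58 for PNN and -0.45 for SON, lower in KO1. For RBM39, HNRNPH3 and SRRM1 this call was kept in all 22 alternatives. Beside PNN, the genes within 5 Mb had a median difference of -0.56 between the clones, and the PNN call was lost with this median subtracted (adjusted p of 0.928), as was that of SON (0.0656). Beside RBM39 the neighbours had a median of 0.14. Of the 5 markers that could be fitted, KRT8 (2.81) and KRT18 (1.84) were higher in KO1 than in KO2, MUC1 (-0.57) and SYP (-0.88) were lower, and VIM was not called. Their part in these differences was not tested. Groups of 3 libraries are too small for a test of single outlying libraries.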

How the results depend on the processing

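Counts of calls follow in the order KO1 against Vector, KO2 against Vector and KO1 against KO2, for the 44 fitted genes of the set (9, 7 and 7 as reported) and then for the 137 genes of the other lists (31, 34 and 38). The share of all fitted genes called is given as background in the same order. Leaving out KO2 replicate 3 and Vector replicate 3 together gave 27, 22 and 27, and 85, 79 and 71 (background 56.8%, 49.5% and 47.7%). Library weights gave 29, 26 and 31, and 89, 92 and 82 (background 65.6%, 61.3% and 59.4%). Removing each library's length and GC trend gave 14, 12 and 20, and 57, 60 and 62 (background 45.9%, 40.5% and 43.7%). The 2 compared groups alone gave 12, 4 and 15, with 14 for the other lists in KO2 (background 33.7%, 18% and 38.6%). An adjusted p under 0.01 gave 1, 3 and 2, with 14 in KO2 and 18 between the clones for the other lists. The background was then 18.7%, 14.4% and 17%. Leaving out 1 library at a time gave 1 to 16, 6 to 11 and 3 to 17, and 24 to 54, 19 to 58 and 22 to 55. The background then ran from 22.6% to 44.8%, 19.5% to 39.8% and 20.3% to 41.1%. The highest of these were without Vector replicate 3. The cause of these shifts was not tested. Pseudocount, filters, TMM scaling and limma-voom kept the counts within 1.5 times those reported. An edgeR test on recovered reads was not run.

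Deviations of same-numbered libraries had correlations of -0.202 to 0.142, and those of differently numbered libraries -0.261 to 0.251. No pairing by number was seen, but so few libraries a group cannot exclude it. A replicate block gave 7, 7 and 7 calls in the set and 29, 30 and 32 in the other lists (background 29.9%, 24.1% and 27%). With the length and GC trend removed as well it gave 15, 12 and 19, and 56, 63 and 57 (background 45%, 39.3% and 42.8%).

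Single genes that changed sign at a call were these. With the neighbouring genes' median subtracted, HNRNPL was called higher, at 0.25 in KO1 and 0.32 in KO2, and PNN was at 0.07 in KO1. In KO2 against Vector, library weights gave -0.20 for BCLAF1, 0.36 for HNRNPA0, 0.35 for HNRNPAB and 0.63 for SRSF9. Without both libraries that stood apart the KO2 values were -0.23, 0.31, 0.36 and 0.58 for the same genes. Depth limited SRSF12, which had few reads per library, whereas reads of U2AF1 cannot be assigned between it and its near copy.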
